A study of Homo sapiens with 6 samples.

Results

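The genes of the Notch and Hedgehog pathways were examined in JIMT-1 cells, an established human HER2+ breast cancer line. The members were DTX3, PTCH1 and NOTCH1, together with all other rows of the deposited table whose symbol starts with NOTCH, DLL, JAG, HES, HEY, DTX, MAML, PTCH or GLI followed by a digit. This gave 15 of the 758 genes of a NanoString nCounter breast cancer panel. They are NOTCH1, NOTCH2, NOTCH3, JAG1, JAG2, DLL1, DLL3, DLL4, MAML2, HES1, DTX1, DTX3, DTX4, PTCH1 and GLI3. For 24 h, 3 CTL samples received PBS and 3 aCT1 samples received 250 µM of the peptide aCT1, and total RNA was hybridized to barcoded probes that are counted one by one without amplification. aCT1 is modeled on the carboxyl-terminal end of connexin 43, the gap junction protein encoded by GJA1. All samples come from this single line, and the labels do not state whether the samples of a group were separate cultures, so the p-values measure the spread between these samples, which may be technical.

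Notch receptors are cut after a ligand of the Jagged or Delta-like family on a neighboring cell binds them. The released intracellular part enters the nucleus, joins the DNA-binding protein RBPJ and a Mastermind-like coactivator, and switches on targets such as HES1. Deltex proteins are E3 ubiquitin ligases, and the founding member of the family binds the intracellular part of Notch. In the Hedgehog pathway, PTCH1 is the receptor that holds Smoothened (SMO) inactive until a Hedgehog ligand binds. GLI transcription factors then change target genes, and PTCH1 is itself a target of the pathway. In breast tissue both pathways are known for their roles in progenitor cells and in tumors.

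The promoters of HES1 and PTCH1 are shown because these genes are the textbook targets by which the state of each pathway is read, and those of DTX4 because it had the smallest p-value among the members. The sequences are the 250 bases before annotated transcription starts, from RefSeq on GRCh38.p14, written 5′ to 3′ on the strand of the gene. Capitals mark TGGGAA, the core bound by RBPJ, and GACCACCCA, the site bound by GLI proteins, searched on both strands. The windows lie at chr3:194135898-194136147 (plus strand) for HES1, at chr9:95509267-95509516 (minus strand) for 1 of 5 annotated starts of PTCH1, and at chr11:59171180-59171429 and chr11:59171882-59172131 (both plus strand) for the 2 starts of DTX4.
HES1: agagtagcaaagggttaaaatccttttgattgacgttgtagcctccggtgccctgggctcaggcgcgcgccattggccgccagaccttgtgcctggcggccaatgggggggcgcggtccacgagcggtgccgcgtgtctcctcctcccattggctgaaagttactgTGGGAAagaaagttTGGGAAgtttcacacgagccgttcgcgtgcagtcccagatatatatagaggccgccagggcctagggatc
PTCH1: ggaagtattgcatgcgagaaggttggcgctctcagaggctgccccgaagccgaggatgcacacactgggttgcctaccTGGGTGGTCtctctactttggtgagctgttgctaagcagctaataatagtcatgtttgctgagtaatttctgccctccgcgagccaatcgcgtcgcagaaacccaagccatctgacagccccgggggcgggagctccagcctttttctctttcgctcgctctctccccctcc
DTX4, first start: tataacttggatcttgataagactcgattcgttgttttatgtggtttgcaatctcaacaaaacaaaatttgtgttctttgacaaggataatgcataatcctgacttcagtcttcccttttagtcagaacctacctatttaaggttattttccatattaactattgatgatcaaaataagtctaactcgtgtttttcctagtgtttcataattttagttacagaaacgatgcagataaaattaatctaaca
DTX4, second start: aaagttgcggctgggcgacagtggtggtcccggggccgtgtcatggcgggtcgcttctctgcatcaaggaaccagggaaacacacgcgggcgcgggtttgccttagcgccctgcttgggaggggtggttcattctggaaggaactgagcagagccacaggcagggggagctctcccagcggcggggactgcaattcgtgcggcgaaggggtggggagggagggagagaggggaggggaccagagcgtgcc

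The HES1 window holds TGGGAA at 2 places that begin at -84 and -70, with 8 bases between them, where -1 is the base before the start. The PTCH1 window holds the GLI site on the opposite strand, as TGGGTGGTC, beginning at -172. It is shown because it holds this site, and the windows of the other annotated PTCH1 starts held neither set of letters. Of 35116 RefSeq windows of 250 bases, 20.8% held TGGGAA or its reverse complement and 0.199% held GACCACCCA or its reverse complement. Windows were found for 10 of the 15 members. HES1 was the member with the RBPJ core and PTCH1 the member with the GLI site, while neither set of letters was in the DTX4 windows. A match of letters is a description of the sequence and was not tested as a binding site.

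The recovered probe counts totaled between 1437572 and 1494919 per sample. The epithelial or HER2+ markers ERBB2, GRB7, CDH1 and KRT7 had means of 5852.1 to 9984.5 normalized counts. EGFR and CD44, which were listed with them, had means of 2307.6 and 44078.7. The 15 lymphocyte genes in the table, which an epithelial line should not express, had means of 9.32 to 44.4 normalized counts, and this range was taken as the background level of the panel. Their sum ranged from 305.1 to 365.9 in CTL and from 300.5 to 382.4 in aCT1. Of 14 myeloid, stromal and endothelial markers, 2 were above that range, PECAM1 at 67.1 and CD68 at 47.6 normalized counts.

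Of the 15 members, 10 had a mean above all of the lymphocyte genes and 5 lay within their range. In the CTL samples, the receptor NOTCH2 had the highest mean, 1544.0 normalized counts, followed by DTX3 at 1384.1 and HES1 at 656.6. The ligand DLL3 (558.3) and DTX4 (555.6) came next and overlapped. JAG1 (363.6), NOTCH3 (299.1), NOTCH1 (233.5), MAML2 (169.8) and PTCH1 (77.5) then followed without overlap between neighbors. The members within the background range were JAG2 (26.8), GLI3 (23.2), DTX1 (13.2), DLL4 (12.3) and DLL1 (11.9), and expression of these genes was not detectable above background at this depth. Of the 14 pairs of neighbors in this order, 10 did not overlap over the 3 CTL values. Each gene is counted by its own probe pair, with no division by transcript length, so this is an order of probe counts, and probes can differ in efficiency.

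**Figure D1:**
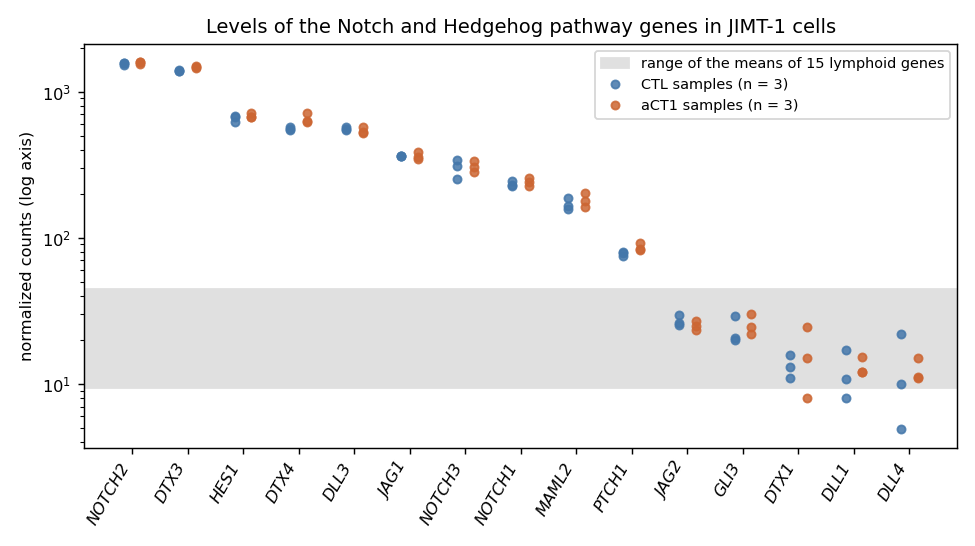
Normalized counts on a log axis of the 15 Notch and Hedgehog pathway genes, with a point for each of 3 CTL and 3 aCT1 samples and a grey band for the range of the means of 15 lymphoid genes. NOTCH2 and DTX3 lie highest, PTCH1 (77.5 in CTL) lies just above the band, and JAG2, GLI3, DTX1, DLL1 and DLL4 lie at its level.

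The comparison of aCT1 with CTL asks whether the peptide changes these signaling genes after 24 h. With limma, 2 of the 15 members had an unadjusted p under 0.05, DTX3 and DTX4, both higher in aCT1. Of the 758 genes measured, 9.37% had such a p, with 6.46% higher and 2.90% lower in aCT1. After Benjamini-Hochberg adjustment over the whole table, limma called 0 members and 0 of the 758 genes, with 71 genes at an unadjusted p under 0.05, and edgeR on the recovered counts called 0 with the authors' factors (71 at an unadjusted p under 0.05) and 1, SFRP1, with TMM factors (65). The 3 aCT1 values did not overlap the 3 CTL values in 3 members (DTX3, DTX4 and PTCH1), all higher, where 14.2% of all genes did not overlap. Without CTL replicate 2 or without aCT1 replicate 2, 1 member (DTX4) kept an unadjusted p under 0.05. The number without overlap was 6 without CTL replicate 3 and 5 without aCT1 replicate 1 or 3, where fewer samples make overlap rarer. That number was 2 (DTX3 and DTX4) with the lymphocyte level subtracted and 1 (DTX4) with median centering or quantile normalization. The 14.2% over all genes holds for all 6 samples on the deposited values. No such share is given for these alternatives, so their counts cannot be set against the whole table. In all, 12 of 15 members had a log2 fold change above 0, where 58.8% of all genes did. When each sample was centered on its median, 6 of 15 members and 24% of all genes were above 0. The median log2 fold change of the members was 0.091, beside 0.018 over all genes. For the 10 members above background it was 0.054, beside 0.015 over all genes with a mean of at least 50 normalized counts. For the 5 members at background it was 0.145, beside -0.051 over the 15 lymphocyte genes, whose median absolute log2 fold change was 0.220. Among the 433 genes with a mean of at least 50 normalized counts, a minimum that 10 of the 15 members passed, 13.4% had an unadjusted p under 0.05, 18.2% did not overlap and 61.7% were above 0.

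**Figure D2:**
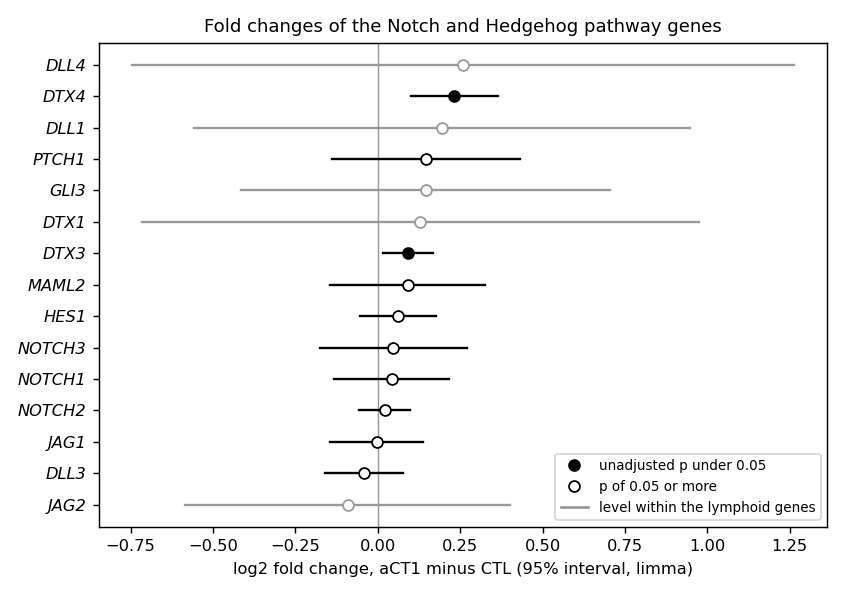
Log2 fold changes of the 15 members, aCT1 minus CTL, with 95% intervals from limma. Filled points have an unadjusted p under 0.05 and grey lines mark genes within the lymphoid range. The intervals of DTX4 (0.10 to 0.36) and DTX3 (0.015 to 0.17) lie above 0, and those of the other members include 0.

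The 3 Notch receptors were measured well above background and differed little between groups. NOTCH1 had 227.0, 244.3 and 229.2 normalized counts in the CTL samples and 242.3, 255.1 and 224.8 in the aCT1 samples. The groups overlapped, with the highest and the lowest of the 6 values both in aCT1. Its log2 fold change was 0.043 (95% interval -0.13 to 0.22, limma adjusted p = 0.965), and it was -0.055 with each sample centered on its median. NOTCH2, the receptor with the most counts, had 1565.7, 1558.3 and 1508.0 in CTL and 1582.8, 1583.4 and 1531.9 in aCT1. The interval of its log2 fold change was narrow, -0.056 to 0.097, around 0.021. This value turned to -0.077 with median centering and -0.015 with quantile normalization. NOTCH3 had 250.5, 309.1 and 337.8 in CTL and 302.4, 336.8 and 283.1 in aCT1, so that the CTL samples alone spanned the aCT1 values. Its SD of 44.5 in CTL was larger than the 17.3 that counting alone gives at this level. For NOTCH3, the log2 fold change of 0.047 (95% interval -0.18 to 0.27) turned to -0.076 without CTL replicate 1 and -0.021 without aCT1 replicate 2, and it was also below 0 with median centering (-0.051) and quantile normalization (-0.058).

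Among the 5 ligands, JAG1 and DLL3 were above background. JAG1, which activates Notch receptors on neighboring cells, had 362.1, 363.9 and 364.9 normalized counts in CTL and 388.5, 342.8 and 358.7 in aCT1. The CTL values lay inside the aCT1 values, and the SD was 1.45 in CTL and 23.2 in aCT1, where counting alone gives 19.1 in both. For JAG1, the log2 fold change was -0.0032 (95% interval -0.15 to 0.14), and it was above 0 without aCT1 replicate 2 (0.038) or aCT1 replicate 3 (0.0051). DLL3, a divergent ligand known for inhibiting Notch within the same cell, had 555.8, 572.3 and 546.9 in CTL and 528.6, 524.1 and 575.4 in aCT1. A pair of aCT1 values lay below CTL and the other one above it. The fold change of DLL3 was -0.042 on the log2 scale (95% interval -0.16 to 0.077, limma adjusted p = 0.947).

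The activating ligands JAG2, DLL1 and DLL4 were at background. JAG2 ranged from 23.5 to 29.4 normalized counts over the 6 samples, DLL1 from 7.98 to 17.1 and DLL4 from 4.89 to 22.1. The lowest recovered count of DLL4 was 5 and the highest 22, both in CTL samples. The groups of all 3 genes overlapped, and their intervals were wide, from -0.75 to 1.26 on the log2 scale for DLL4. The values of DLL1 and DLL4 changed sign when a CTL sample was left out, to -0.060 without CTL replicate 2 for DLL1 and to -0.27 without CTL replicate 1 for DLL4.

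MAML2, a Mastermind-like coactivator, and HES1, a transcriptional repressor that Notch switches on, gave values that overlapped between groups. MAML2 had 187.9, 156.5 and 164.9 normalized counts in CTL and 179.2, 161.4 and 202.4 in aCT1. Its log2 fold change was 0.091 (95% interval -0.14 to 0.33), and it was -0.0071 with median centering. HES1 had 620.4, 682.9 and 666.5 in CTL and 664.8, 715.5 and 673.5 in aCT1. CTL replicate 1 was the lowest of the 6 samples and aCT1 replicate 2 the highest. The log2 fold change of HES1 was 0.061 (95% interval -0.054 to 0.18, limma adjusted p = 0.822), and it was -0.037 with median centering. A difference of HES1 above 0.18 on the log2 scale is outside this interval.

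The Deltex genes held both members with an unadjusted p under 0.05. DTX4, an E3 ubiquitin ligase of the family, had 568.5, 544.4 and 553.9 normalized counts in CTL and 615.7, 716.5 and 630.6 in aCT1. All 3 aCT1 values were above all 3 CTL values, and aCT1 replicate 2 stood apart from the other two, and the exact permutation test (two-sided) gave p = 0.1, its lower limit with 3 samples a group. The mean was 555.6 ± 12.2 (SD, n = 3) for CTL against 654.2 ± 54.4 (SD, n = 3) for aCT1, 17.8% higher. The log2 fold change was 0.23 (standard error 0.061, 95% interval 0.10 to 0.36). In limma, its unadjusted p was 0.002 and its adjusted p was 0.189. Without aCT1 replicate 2 it was 0.17, with an unadjusted limma p of 0.00992. Centering each sample on its median was the alternative that ended the unadjusted call, at 0.14 and an unadjusted limma p of 0.0635.

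DTX3, a shorter Deltex ligase, had 1401.3, 1375.9 and 1375.3 normalized counts in CTL and 1452.7, 1497.7 and 1473.7 in aCT1. The groups did not overlap, and all 3 aCT1 values were higher (two-sided exact permutation p = 0.1, the smallest possible). The mean was 1384.1 ± 14.8 (SD, n = 3) for CTL against 1474.7 ± 22.5 (SD, n = 3) for aCT1, 6.54% higher. Counting alone gives an SD of 37.2 in CTL and 38.4 in aCT1, so the replicates lay closer together than counting noise gives on average. The log2 fold change was 0.091 (standard error 0.035, 95% interval 0.015 to 0.17). In limma, its unadjusted p was 0.0219 and its adjusted p was 0.341. With median centering the value was -0.0063, on the other side of 0. The unadjusted call was also lost with quantile normalization (0.056), with edgeR and TMM factors (0.076), with centering on the mean of genes of at least 50 normalized counts (0.071, chosen after seeing the data), without CTL replicate 2 (0.087) and without aCT1 replicate 2 (0.080).

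DTX1, another Deltex ligase, was at background in these cells. It ranged from 11 to 15.7 normalized counts in CTL and from 7.97 to 24.5 in aCT1, so the aCT1 samples held both the lowest and the highest value. Its log2 fold change of 0.13 had an interval from -0.72 to 0.97 and turned to -0.26 without aCT1 replicate 3.

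Of the Hedgehog members, PTCH1 was above background and GLI3 was not. PTCH1 had 74.4, 79.8 and 78.4 normalized counts in CTL and 82.1, 91.7 and 83.8 in aCT1. The groups did not overlap, with aCT1 replicate 2 again the highest (two-sided exact permutation p = 0.1, the smallest possible). They did overlap with the lymphocyte level subtracted, with median centering and with quantile normalization. The mean was 77.5 ± 2.81 (SD, n = 3) for CTL against 85.9 ± 5.11 (SD, n = 3) for aCT1, 10.8% higher. The log2 fold change was 0.15 (standard error 0.13, 95% interval -0.14 to 0.43). In limma, its unadjusted p was 0.288 and its adjusted p was 0.828. At this depth, the counting noise of PTCH1 by itself amounts to 0.13 (standard error, log2 scale), and the difference was not detectable beyond it. GLI3, a transcription factor that mostly represses targets when the pathway is off, had 20.5, 19.9 and 29.2 in CTL and 22, 29.9 and 24.5 in aCT1, within the background range in all 6 samples. GLI3 had a log2 fold change of 0.14 (95% interval -0.41 to 0.70).

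**Figure D3:**
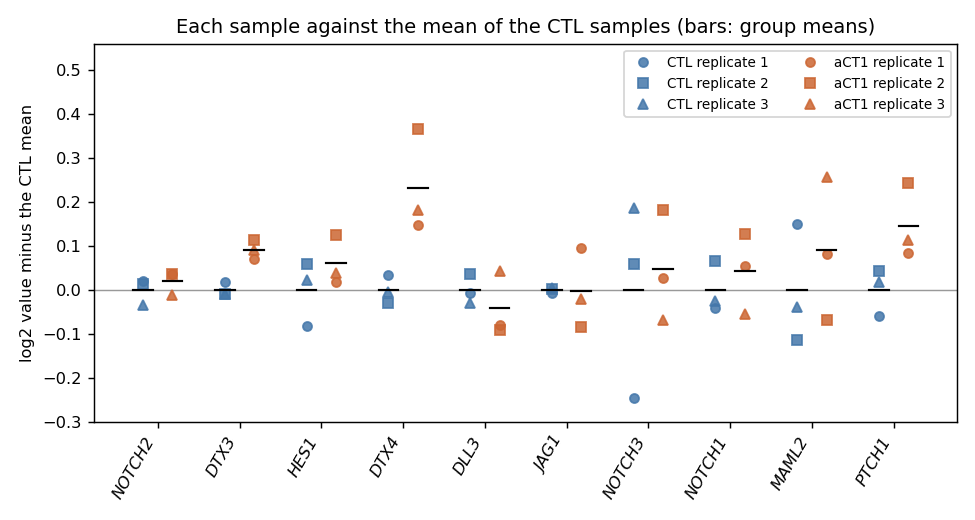
Log2 value of each sample minus the mean of the CTL samples for the 10 members above the lymphoid genes, with a symbol for each replicate number and a bar for each group mean. DTX3, DTX4 and PTCH1 are the genes whose aCT1 points all lie above the CTL points, and aCT1 replicate 2 is the highest aCT1 sample in 7 of the 10 genes.

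The aCT1 samples did not vary alike. Of the 10 members above background, 7 were highest in aCT1 replicate 2 among the 3 aCT1 samples (NOTCH1, NOTCH2, NOTCH3, HES1, DTX3, DTX4 and PTCH1) and 3 were lowest in it (JAG1, DLL3 and MAML2). Among the 433 genes with a mean of at least 50 normalized counts, aCT1 replicate 2 was the highest of the aCT1 samples in 50.3% and the lowest in 24.7%.

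**Figure D4:**
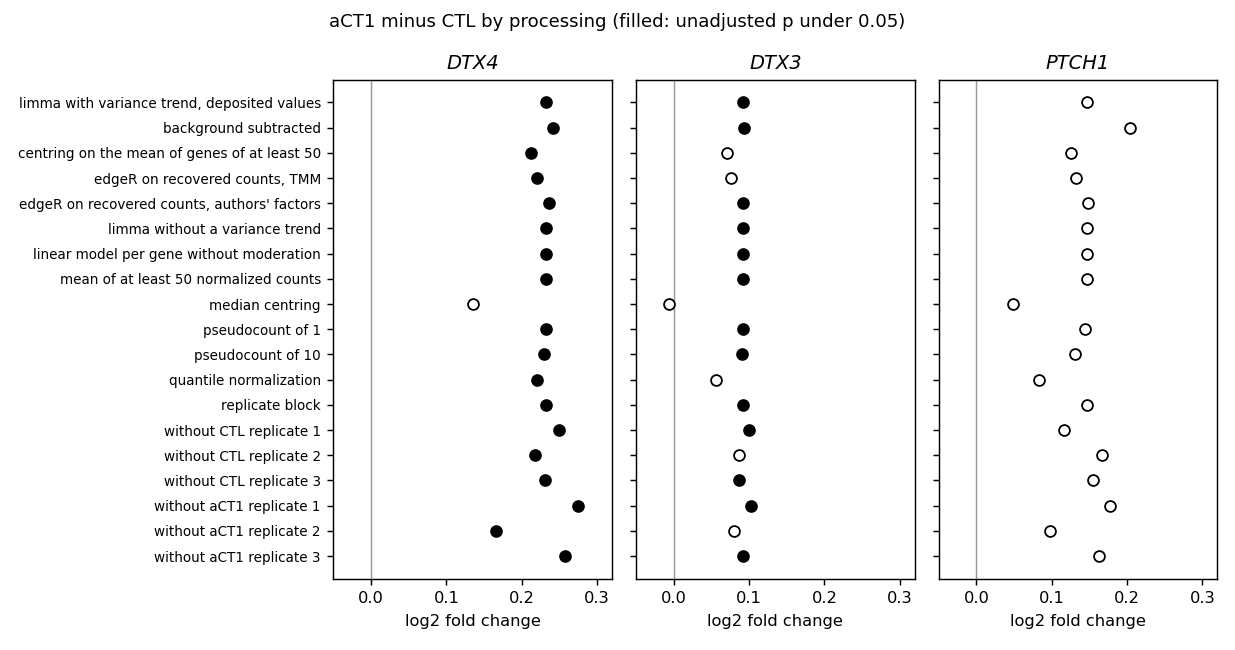
Log2 fold change, aCT1 minus CTL, of DTX4, DTX3 and PTCH1 under each processing alternative, filled where the unadjusted p was under 0.05. DTX4 was above 0 in each setting and lost the threshold with median centering, DTX3 fell to -0.0063 with median centering, and PTCH1 was above 0 in each setting and past the threshold in none.

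Other genes were taken from a list of textbook components and targets of both pathways. Its Hedgehog part consisted mostly of Wnt and BMP ligands, so values over the list are not those of pathway components alone. Of 46 such genes in the table, 26 had a mean above the lymphocyte genes. With limma, 3 of the 46 were higher and 1 lower at an unadjusted p under 0.05, or 8.7%, beside 9.37% over all genes. Their median log2 fold change was 0.010, beside 0.018 over all genes, and 0 passed the adjusted threshold with limma (4 at an unadjusted p under 0.05). With edgeR, 0 passed it with the authors' factors (3 at an unadjusted p under 0.05) and 1, SFRP1, with TMM factors (1).

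Of 9 further Notch pathway genes, the acetyltransferase EP300, which acts with Mastermind-like proteins, was the gene with an unadjusted p under 0.05. It had 1500.1, 1552.3 and 1472.8 normalized counts in CTL and 1603.9, 1590.4 and 1616.8 in aCT1, with no overlap. Its log2 fold change was 0.089 (limma adjusted p = 0.38), which turned to -0.0091 with median centering and lost the unadjusted threshold in 7 other alternatives. The related acetyltransferase CREBBP had a log2 fold change of -0.017, and the deacetylases HDAC1 and HDAC2, which repress Notch targets in the absence of signal, had -0.024 and -0.0056. The endocytic adaptor NUMBL had 0.064, the glycosyltransferase LFNG, which modifies Notch receptors, -0.059, and the γ-secretase subunit APH1B 0.080, with groups that overlapped for all 3.

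The list of 22 genes set beside the Hedgehog members consisted mostly of Wnt and BMP ligands, which are not Hedgehog components. Of these 22 genes, 15 were within or below the background range, namely SCUBE2, GAS1, LRP2 and otherwise Wnt and BMP ligands. SMO, the signal transducer held inactive by PTCH1, had 64.6, 76.8 and 94.5 normalized counts in CTL and 89.1, 73.7 and 78.7 in aCT1. These values overlapped, with the lowest and the highest both in CTL, and the log2 fold change was 0.047 (95% interval -0.30 to 0.40). Among the kinases that phosphorylate GLI proteins, PRKACA had 0.042 and GSK3B -0.008, and the zinc finger factor ZIC2 had 0.037, all with an unadjusted limma p above the threshold. The Wnt ligand WNT11 was the gene of this list with an unadjusted p under 0.05, at 12.6 normalized counts in CTL and 20.8 in aCT1, inside the range of the lymphocyte genes. It was not called by edgeR, and its level left it out of the fit with a minimum of 50 normalized counts. In 11 of the 17 alternatives that included WNT11, the unadjusted threshold was lost.

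Among 15 genes described as targets of either pathway, the cell cycle gene CCND1 was higher and the Wnt antagonist SFRP1 lower at an unadjusted p under 0.05. CCND1 had a log2 fold change of 0.070 (limma adjusted p = 0.371), which turned to -0.028 with median centering and lost the unadjusted threshold in 7 other alternatives. SFRP1 had 6897.8, 6500.5 and 6255.1 normalized counts in CTL and 5707.7, 5647.1 and 5895.8 in aCT1, without overlap. SFRP1 had a log2 fold change of -0.19 (limma adjusted p = 0.0989), and it was below 0 with an unadjusted p under 0.05 in all 18 alternatives. Its adjusted p ranged from 0.00778 to 0.666 over them and was under 0.05 in 5, without CTL replicate 3 (0.00778), with quantile normalization (0.019), with a minimum mean of 50 normalized counts (0.0205), with edgeR and TMM factors (0.0393) and with the replicate number as a block in limma (0.0418). MYC, a target of NOTCH1 in other cells, had a log2 fold change of -0.0012 with an interval of -0.063 to 0.060.

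**Figure D5:**
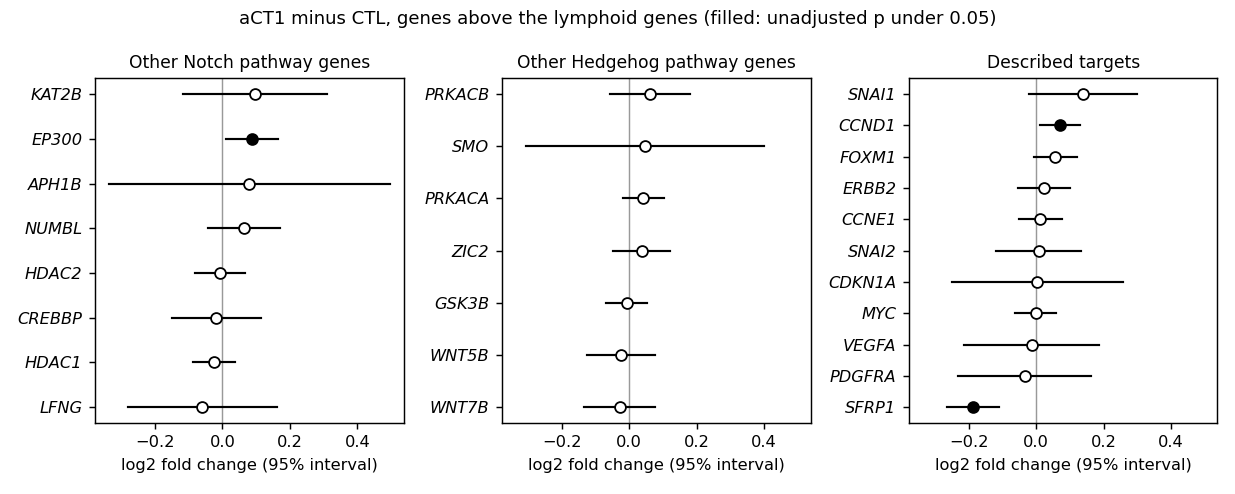
Log2 fold changes, aCT1 minus CTL, with 95% intervals from limma for the 26 other listed genes above the lymphoid genes: pathway genes, Wnt ligands and described targets. EP300, CCND1 and SFRP1 are the filled points with an unadjusted p under 0.05, and most other values lie within 0.1 of 0.

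Genes of the panel were ranked by how closely their profile over the 6 samples followed that of DTX3, PTCH1 and NOTCH1, using the root-mean-square difference of log2 values after each gene was centered on its mean. Among 432 other genes with a mean of at least 50 normalized counts, the profile of DTX3 was most like those of RAD51C (0.0132), a DNA repair gene, DSC2 (0.0136), a desmosomal cadherin, and CKS1B (0.0184), a cyclin-dependent kinase subunit. The median difference from DTX3 over these genes was 0.0675. PTCH1 was most like the cell cycle inhibitor CDKN1B (0.0218), NRXN3 (0.0244) and DHRS2 (0.0257), with a median of 0.0986. NOTCH1 was most like the kinase MAPK3 (0.0223), the tight junction gene CLDN4 (0.0249) and the kinase RPS6KB1 (0.0253), with a median of 0.0778. These differences are a description over 6 samples. For all 3 genes the SD within each group was below what counting alone gives. In CTL it was 2.81 against 8.8 normalized counts for PTCH1, and in aCT1 15.2 against 15.5 for NOTCH1. The rankings were not tested against counting noise.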

How the data were processed

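The authors counted barcoded probes on the nCounter instrument, normalized them to housekeeping genes in nSolver and deposited each gene as a linear signal (normalized counts) and as log2 values. Positive control scaling and background handling are not given in the sources used here. Every deposited signal was a whole multiple of 1 factor per sample (100% of values, within 0.01 of a whole number), which gave the recovered counts, of 1437572 to 1494919 per sample.

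The comparison used limma 3.58.1 in R 4.3.3 with a variance trend on the deposited log2 values of all 758 genes, two-sided, with Benjamini-Hochberg adjustment over all genes and a threshold of 0.05. A trend was used because genes with few counts vary more. The text names all members, other pathway genes with an unadjusted p under 0.05 or the highest counts among enzymes and cofactors (HDAC1, HDAC2, CREBBP, PRKACA and GSK3B; no number of genes was set), and the 3 genes most like DTX3, PTCH1 and NOTCH1. NUMBL, LFNG, APH1B, SMO, ZIC2 and MYC fall outside this rule and were chosen after their values were seen. Alternatives were no trend, no moderation, pseudocounts of 1 and 10, median centering, quantile normalization, a minimum mean of 50, subtraction of the lymphocyte level, edgeR 4.0.16 on recovered counts (scaled by the authors' factors or TMM), a block for replicate number, omission of 1 sample at a time and, added after seeing the data, centering on the mean of genes of at least 50 normalized counts. In simulated data with 200 of the 758 genes changed, the limma fit gave an adjusted p under 0.05 for 42% of genes changed by 0.2 and 57.6% of genes changed by 0.4 on the log2 scale. The changed genes were drawn from all 758, of which 313 were not above the lymphocyte genes. These shares thus mix genes at background with genes of many counts. The simulation raised and lowered equal numbers of genes and gave each gene the variance of the trend, which can differ from the data. The members and lists were chosen with earlier results of these data known. The replicates differed by more than counting noise (chi-square over degrees of freedom between 1.66 and 3.11 in 6 pairs).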

Additional observations from a re-analysis of the deposited data

How the results depend on the processing

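The number of members with an unadjusted p under 0.05 was 2, and it was 0 with median centering, 1 with quantile normalization, 1 with edgeR and TMM factors, 1 with centering on the mean of genes of at least 50 normalized counts (chosen after seeing the data), and 1 to 2 with one sample left out. The number without overlap was 3, 2 with the lymphocyte level subtracted, 1 with median centering, 1 with quantile normalization, and 3 to 6 with one sample left out. Fewer samples make overlap rarer, and no share over all genes is given for these alternatives. Members above 0 numbered 12, beside 58.8% of all genes, and 6 with median centering, beside 24% of all genes. Other pathway genes with an unadjusted p under 0.05 numbered 4, 1 with TMM factors and 1 with the added centering. The log2 fold change of DTX3 was -0.0063 with median centering, 0.056 with quantile normalization, 0.076 with TMM factors, 0.071 with the added centering and 0.080 to 0.10 with one sample left out. DTX4 was 0.135 with median centering and 0.17 to 0.27 with one sample left out, and PTCH1 kept its sign in all 18 alternatives. With median centering NOTCH1 was -0.055, NOTCH2 -0.077, NOTCH3 -0.051, HES1 -0.037 and MAML2 -0.0071, and with quantile normalization NOTCH2 was -0.015 and NOTCH3 -0.058. With one sample left out, NOTCH3 ranged from -0.076 to 0.14, JAG1 from -0.052 to 0.038, DLL1 from -0.060 to 0.49, DLL4 from -0.27 to 0.81 and DTX1 from -0.26 to 0.55. The cause of the changes with quantile normalization or with a sample left out was not tested. Median centering subtracts the same value from all genes of a sample, so it moved every log2 fold change down by the same amount. It moved the median log2 fold change over all genes from 0.018 to -0.080. Of genes with an unadjusted p under 0.05, 69% were higher in aCT1 (49 higher, 22 lower), 4.3% with median centering (4 and 89), 49.4% with quantile normalization (41 and 42), 47.7% with TMM factors (31 and 34), 42.6% with the added centering (29 and 39) and 51.7% without aCT1 replicate 2 (30 and 28). The genes of the table with an adjusted p under 0.05 numbered 0, and 0 to 6 over the alternatives, with no member among them, while SFRP1 of the target list was among them in 5. With median centering EP300 was -0.0091 and CCND1 -0.028.

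Same-numbered samples deviated from their group means with correlations of 0.0776, 0.192 and -0.231. With 3 samples per group these values cannot show whether same-numbered samples were paired, and the labels do not say. With the replicate number as a block, 2 members and 70 genes had an unadjusted p under 0.05, and SFRP1 passed the adjusted threshold (0.0418). Depth limits PTCH1 and the 5 members at background, where counting alone gives a standard error of up to 0.335 on the log2 fold change.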
